A study of Mus musculus with 13 samples.

Results

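Polycomb repressive complex 1 (PRC1) was followed through 10 of its subunit genes, Ring1, Rnf2, Bmi1, Pcgf1, Pcgf3, Pcgf5, Pcgf6, Cbx2, Cbx7 and Rybp, in RNA-seq libraries of differentiating female mouse embryonic stem cells (mESCs). The members were taken by symbol from an expression table of 25965 rows. All 10 were present on a single row each and all 10 passed the expression filter, among 13406 genes tested. The cells were F1 mESCs from an FVB/NJ dam and a CAST/EiJ sire, and every library in every group shares this hybrid background. Day0 was 1 library of undifferentiated cells in 2i medium. The other 12 libraries came from days 4, 5, 6 and 7 of differentiation in serum medium without LIF, into which cells had been moved in steps. On each of these days there was 1 library with a nonsilencing control hairpin (Nons), 1 with the hairpin Smarcc1.6 and 1 with the hairpin Smarcc1.7, both against Smarcc1, which encodes a subunit of BAF, a complex that moves nucleosomes. All 3 groups had been given a retroviral hairpin on day 2 and puromycin from day 3, the controls included, whereas Day0 had received neither. The question put to these libraries was which PRC1 paralogues the cells used before and during differentiation, and whether that use differed after Smarcc1 knockdown.

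PRC1 places ubiquitin on histone H2A and compacts chromatin. Its catalytic core is RING1 or its paralogue RNF2 (RING1B), bound to a PCGF protein that defines the variety of complex. Complexes with PCGF2 or BMI1 (PCGF4) can hold a CBX protein, which reads trimethylated histone H3, whereas the non-canonical complexes hold RYBP or YAF2 in its place. PCGF1 works with KDM2B and BCOR at unmethylated CpG islands, PCGF6 with MGA, MAX, L3MBTL2 and E2F6 at germline genes, and PCGF3 and PCGF5 with AUTS2 or FBRS. In X chromosome inactivation the PCGF3 and PCGF5 complexes are brought to Xist RNA through the RNA-binding protein HNRNPK. CBX7 is the main CBX protein of mESCs, and CBX2 is associated with their differentiation.

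Values are the deposited log2 CPM, the log2 of reads scaled to the mapped reads of the library. As there was 1 library per group and day, days served as the replicates for knockdown, and the 3 groups did for changes per day. The p-values measure the spread between these libraries, and nothing in the labels shows separate cultures. Fits of change per day rest on 4 days and treat the 3 libraries of a day as independent. A shift that these libraries share is therefore not allowed for in their p-values. The recovered depth ran from 13993440 to 63548092 mapped reads, where 3 reads give a log2 CPM of -2.22 and -4.40. The member with the fewest reads in any library, Pcgf1, had 61 there. Day0 and the 3 day 6 libraries stood apart from the other 9 in where reads fell. In those 4, 85.3 to 86.5% of reads fell in genes against 91.6 to 92.6%, and 1.29 to 1.47% fell on processed pseudogenes against 0.295 to 0.398%. Ribosomal protein genes held 1.79 to 2.23% of reads in those 4 against 4.29 to 6.92%. The labels do not say why the libraries differ. Differences within a day compare libraries of 1 kind, whereas differences that involve Day0 or day 6 can also carry this one. Markers of mESCs fell with time, 5 of 7 at an adjusted p under 0.05, and their summed log2 CPM went from 12.35 in Day0 to between 10.11 and 11.39 afterwards. Markers of trophoblast (Cdx2, Elf5 and Krt8) went the other way. Both of those tested rose, and the summed log2 CPM of the list went from 2.96 in Day0 and 3.16 to 3.55 on day 4 to between 10.61 and 11.07 on day 7. Of 3 tested markers each, 2 rose for mesoderm, endoderm and fibroblasts, and the other fibroblast marker fell. Of 4 primed or formative markers 1 rose and 1 fell, and of 2 tested neuroectoderm markers 0 passed. The part of these cell types in the changes of the members with time was not tested. In such bulk samples a fall in the share of cells that express a gene and a fall in RNA per cell cannot be told apart.

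The targeted gene was examined first. Smarcc1 stood at 9.10, 8.87, 8.28 and 7.89 log2 CPM in Nons on days 4, 5, 6 and 7, at 7.42, 7.40, 7.28 and 7.28 in Smarcc1.6, and at 7.96, 7.78, 7.17 and 7.51 in Smarcc1.7. Every hairpin library was below the Nons library of its day, by 1.06 ± 0.14 (SE) on the log2 scale over both hairpins (limma, adjusted p = 0.00232). The guide strands of the hairpins are shown, because they allow a check for matches in the PRC1 transcripts. Bases are 5′ to 3′, and the capitals mark the seed, bases 2 to 8.
Smarcc1.6: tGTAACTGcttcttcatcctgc
Smarcc1.7: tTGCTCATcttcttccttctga
In mm10 the target of Smarcc1.6 lies at chr9:110177472-110177493, in coding exon 13 of Smarcc1 (plus strand), and that of Smarcc1.7 at chr9:110173911-110173932, in coding exon 11. Against the longest transcripts of the members, the longest run of a target found was 11 of 22 bases for Smarcc1.6 and 10 of 22 for Smarcc1.7. The 7-base seed match CAGTTAC of Smarcc1.6, searched on the sense strand, was in the transcripts of Pcgf3, Pcgf6 and Rybp, and it was in 15.9% of all protein-coding genes. ATGAGCA, the seed match of Smarcc1.7, was in Pcgf5 and in 24.7% of protein-coding genes.

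Compared per kilobase of exon, taking the union of all annotated exons as the length, the members differed over an order of magnitude. The median over the 12 differentiating libraries was highest for Rnf2, at 23.3 CPM per kb (range 20.3 to 33.5), followed by Cbx7 at 22.4 (17.2 to 26.8), Pcgf6 at 17.1 (10.4 to 29.5) and Rybp at 16.4 (8.50 to 32.1). Pcgf3 at 9.15 (7.96 to 11.1), Cbx2 at 8.92 (6.303 to 11.5) and Bmi1 at 5.20 (1.38 to 8.74) came next. Pcgf1 at 2.90 (2.05 to 5.76), Pcgf5 at 2.36 (0.819 to 6.27) and Ring1 at 2.01 (1.24 to 3.50) were the lowest. Each gene's range overlapped that of its neighbour in this order, and the wide ranges were those of genes that changed with time. The order depends on the length used. Pcgf5 had a median of 5.14 with exons inside the table's row and of 4.62 with the longest transcript, which brings it close to Bmi1 (5.20 and 5.75), and with the longest transcript Pcgf6 (30.4) stood above Rnf2 (30.1). The plot of log2 CPM by day shows every member in every library.

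**Figure D1:**
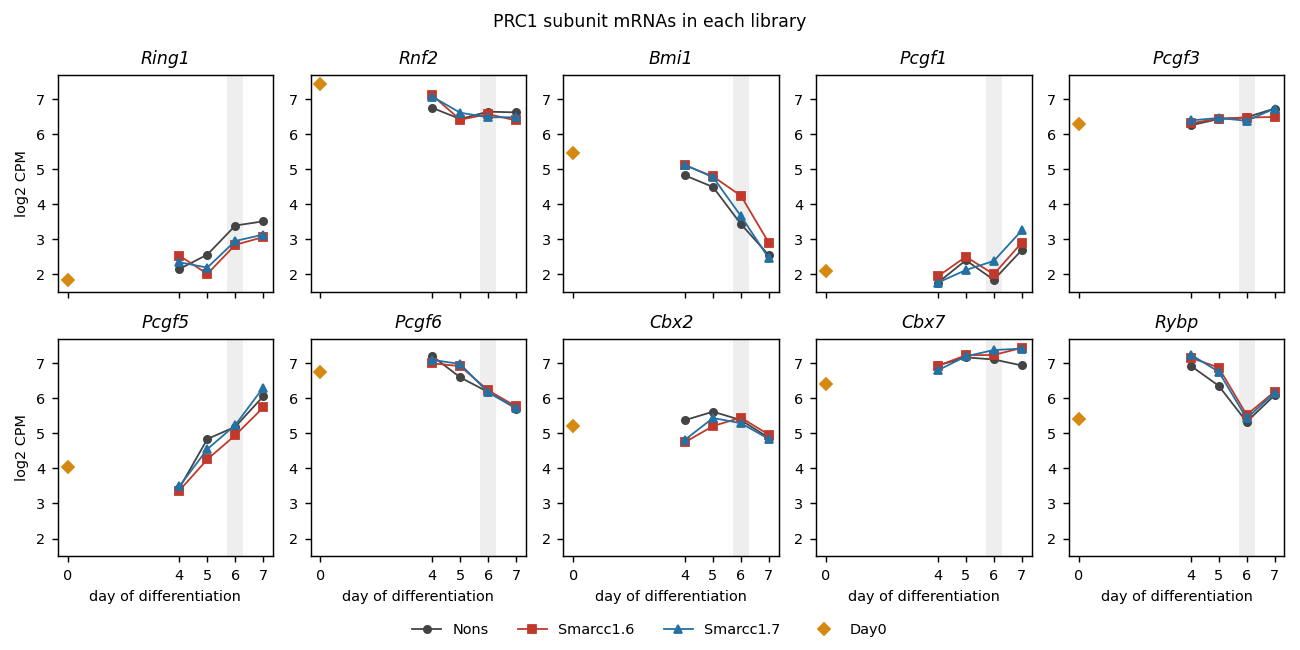
Level of each PRC1 subunit mRNA (log2 CPM, vertical axis, same scale in all panels) against day of differentiation. Each library of Nons, Smarcc1.6, Smarcc1.7 and Day0 is 1 point. The grey band marks the day 6 libraries, which with Day0 had a lower share of reads in genes than the rest. Bmi1 and Pcgf6 fall and Pcgf5 rises from day 4 to day 7 in all 3 groups, and for most members the 3 groups lie close together on each day.

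More members passed the test for time than for knockdown. Over days 4 to 7, 9 of the 10 members changed per day at an adjusted p under 0.05, 5 upwards and 4 downwards, where 60.5% of all tested genes did. Of the genes tested, 34.9% rose and 25.6% fell. When each library was centred on its autosomal median, 6 members passed, 2 rising and 4 falling, because Pcgf1, Pcgf3 and Cbx7 no longer passed, and the split of all called genes moved from 4679 rising and 3435 falling to 3574 and 4731. Between day 4 and day 7, the 3 libraries of each day did not overlap for 8 of the 10 members, against 73.5% of all genes. Change with time was thus common to most genes, and the members differed from one another in its direction and size.

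The catalytic pair moved in opposite directions. Rnf2, the more abundant ligase of mESCs, stood at 7.43 log2 CPM in Day0, at 6.75, 6.43, 6.64 and 6.62 in Nons on days 4, 5, 6 and 7, at 7.11, 6.41, 6.57 and 6.39 in Smarcc1.6, and at 7.07, 6.61, 6.48 and 6.48 in Smarcc1.7. Its day 4 libraries were the highest of each group, with little movement afterwards. Ring1 stood at 1.84 in Day0, at 2.15, 2.56, 3.39 and 3.51 in Nons, at 2.53, 2.01, 2.84 and 3.06 in Smarcc1.6, and at 2.34, 2.19, 2.95 and 3.13 in Smarcc1.7. All 6 libraries of days 6 and 7 lay above all 6 of days 4 and 5. Ring1 rose by 0.35 ± 0.078 (SE) log2 units per day (limma, adjusted p = 0.00274), and Rnf2 fell by 0.14 ± 0.052 per day (adjusted p = 0.0422). Leaving out day 7 took Ring1 to 0.36 per day with an adjusted p of 0.055. Rnf2 depended on day 4, without which its change was 0.01 per day (adjusted p = 0.914). Its call was also lost without day 6 (adjusted p = 0.073) or day 7 (0.0580), with no expression filter (0.0606), with eBayes without a trend (0.0551), with either hairpin alone beside Nons (0.191 and 0.224), and when 1 library of Nons day 4 or of either hairpin on day 4, 6 or 7 was left out (adjusted p 0.0554 to 0.163). On the scale of CPM per kb, the log2 ratio of Ring1 to Rnf2 was -5.24 in Day0, averaged -4.29 on day 4 and reached -2.92 on day 7. Rnf2 mRNA therefore exceeded Ring1 mRNA in every library, 37.8-fold in Day0 and 6.8- to 8.0-fold on day 7.

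Among the PCGF genes, Bmi1 and Pcgf6 fell and Pcgf5 rose, and these were the steepest changes with time among the 10 members. Bmi1, which forms canonical complexes, stood at 5.46 log2 CPM in Day0, at 4.82, 4.49, 3.43 and 2.54 in Nons on days 4 to 7, at 5.11, 4.79, 4.24 and 2.89 in Smarcc1.6, and at 5.12, 4.77, 3.66 and 2.45 in Smarcc1.7. It declined at every step in every group. The fall was 0.81 ± 0.073 (SE) per day, which is 0.187 times the starting level over the 3 days (limma, adjusted p = 7.945e-06). Pcgf6, of the complex at germline genes, stood at 6.75 in Day0, at 7.21, 6.60, 6.18 and 5.71 in Nons, at 7.00, 6.92, 6.23 and 5.77 in Smarcc1.6, and at 7.10, 6.98, 6.17 and 5.73 in Smarcc1.7. It too declined at every step, and on day 7 the 3 groups were within 0.06 of one another. Its change per day was -0.48 ± 0.039 (adjusted p = 4.77e-06). Pcgf5 stood at 4.03 in Day0, at 3.44, 4.84, 5.19 and 6.06 in Nons, at 3.37, 4.26, 4.95 and 5.74 in Smarcc1.6, and at 3.49, 4.55, 5.24 and 6.31 in Smarcc1.7. It increased at every step in every group, by 0.84 ± 0.049 per day or 5.71-fold over 3 days (adjusted p = 8.97e-07). These calls for Bmi1, Pcgf5 and Pcgf6 held under each alternative run, whichever day or library was left out.

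Pcgf3 and Pcgf1 changed less. Pcgf3, the partner paralogue of Pcgf5, was nearly level, between 6.25 (Nons, day 4) and 6.73 (Nons and Smarcc1.7, day 7), with 6.28 in Day0. It rose by 0.10 ± 0.030 (SE) per day (limma, adjusted p = 0.0127). Pcgf1 stood at 2.09 log2 CPM in Day0, at 1.76, 2.40, 1.84 and 2.69 in Nons, at 1.94, 2.50, 2.00 and 2.90 in Smarcc1.6, and at 1.76, 2.12, 2.38 and 3.25 in Smarcc1.7. In Nons and Smarcc1.6 it dipped on day 6, to 0.71 and 0.70 below the mean of days 5 and 7, whereas in Smarcc1.7 day 6 lay between these days. Pcgf1 rose by 0.31 ± 0.089 per day (adjusted p = 0.0112). Without day 4 or day 7 neither gene passed, with adjusted p of 0.123 and 0.163 for Pcgf3 and of 0.149 and 0.418 for Pcgf1. Pcgf1 has a processed pseudogene, Gm8930, 97.5% identical over 764 bases, and Bmi1 has Gm5946, 97.0% identical over 2658 bases. Neither pseudogene was found as a row of the table, and how reads shared with them were counted was not tested.

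The 5′ ends of the 3 steepest PCGF genes are shown, since Bmi1 and Pcgf6 moved together while Pcgf5 moved the other way. RefSeq (GRCm38.p6, the build of mm10) listed promoters for 7 of the 10 members. Pcgf1, Cbx2 and Rybp were not matched. Each stretch runs from 250 bases before to 50 bases after the start nearest the table's gene start, on the gene's strand, with CpG dinucleotides in capitals. The Bmi1 promoter is chr2:18676768-18677067 (plus strand), that of Pcgf6 chr19:47050857-47051156 (minus strand) and that of Pcgf5 chr19:36378817-36379116 (plus strand).
Bmi1: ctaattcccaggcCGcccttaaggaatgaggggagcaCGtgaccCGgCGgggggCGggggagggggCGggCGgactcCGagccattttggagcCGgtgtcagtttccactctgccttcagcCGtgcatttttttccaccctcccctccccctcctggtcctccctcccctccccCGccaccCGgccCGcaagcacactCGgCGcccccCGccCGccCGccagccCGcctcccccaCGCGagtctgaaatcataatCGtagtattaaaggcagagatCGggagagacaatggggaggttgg
Pcgf6: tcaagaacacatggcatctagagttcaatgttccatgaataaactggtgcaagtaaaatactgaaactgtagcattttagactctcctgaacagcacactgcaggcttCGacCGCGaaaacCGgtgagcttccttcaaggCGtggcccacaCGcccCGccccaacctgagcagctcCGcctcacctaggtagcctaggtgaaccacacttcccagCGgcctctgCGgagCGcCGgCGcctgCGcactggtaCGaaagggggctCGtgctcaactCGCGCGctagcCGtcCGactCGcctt
Pcgf5: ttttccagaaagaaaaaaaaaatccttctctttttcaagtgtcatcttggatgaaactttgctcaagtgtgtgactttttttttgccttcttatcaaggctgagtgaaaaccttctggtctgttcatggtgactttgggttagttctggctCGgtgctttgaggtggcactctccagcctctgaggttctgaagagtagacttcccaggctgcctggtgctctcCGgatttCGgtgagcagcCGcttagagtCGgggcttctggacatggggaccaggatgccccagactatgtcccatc
Bmi1 held 23 CpGs and Pcgf6 22, counts reached by 21.5% and 23.1% of the 32851 promoters listed, whose median was 7. The Pcgf5 window at the table's start held 5, but RefSeq lists 3 starts for Pcgf5, and the windows of the other two held 34 and 35 CpGs. Ring1 had 37, Cbx7 33, Rnf2 30 and Pcgf3 23, so each matched member had a window with more CpGs than the median promoter. The table gives 1 value per gene, so reads from the different Pcgf5 starts were not separated.

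Expressed as shares, the PCGF pool went from mainly Pcgf6, Pcgf2 and Bmi1 to a more even mix. Each share is a gene's CPM per kb of exon as a percentage of the sum over Pcgf1, Pcgf2, Pcgf3, Bmi1, Pcgf5 and Pcgf6. Bmi1 took 19.1% in Day0, 13.6 ± 1.69% on day 4 (mean and SD of the 3 groups, as for the shares that follow) and 3.96 ± 0.80% on day 7. Pcgf6 took 37.0% in Day0, 45.4 ± 2.71% on day 4 and 26.6 ± 1.63% on day 7. Pcgf5 took 2.23%, 1.42 ± 0.05% and 13.1 ± 1.95%, and Pcgf1 took 4.45%, 3.55 ± 0.32% and 11.8 ± 1.72%. Pcgf3 took 14.01%, 13.8 ± 0.74% and 26.5 ± 2.13%. Pcgf2, which was not among the 10, took 23.3%, 22.3 ± 0.98% and 18.03 ± 1.62%. On day 7 the shares of Pcgf3 and Pcgf6 differed by less than the spread between the groups, but with the longest transcript as the length they were 20.9 ± 1.71% and 30.1 ± 2.02%. Shares depend on the exon length assigned: the Pcgf5 annotation extends past the table's row on both sides, and with exons inside that row only, its day 7 share was 24.6%. From Day0 to Nons day 6, both in the set of libraries that stood apart, Bmi1 went from 19.1 to 6.61%, Pcgf5 from 2.23 to 7.03% and Pcgf6 from 37.0 to 35.3%.

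**Figure D2:**
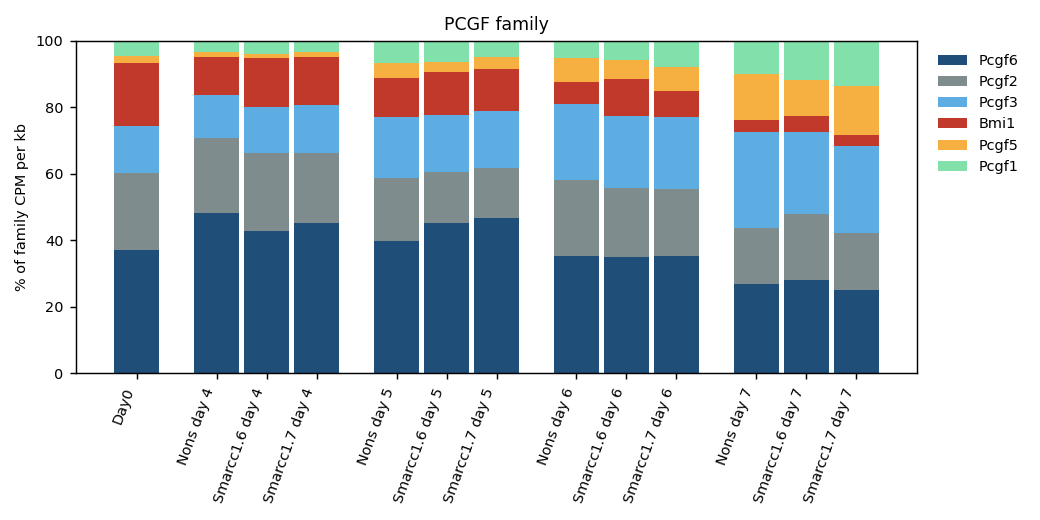
Share of each paralogue (percent of the family's summed CPM per kb of exon, stacked to 100) in each of the 13 libraries, for the PCGF genes, with Pcgf2 included to complete the family. The Bmi1 share falls from 13.6% on day 4 to 3.96% on day 7 and the Pcgf5 share grows from 1.42% to 13.1%.

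The CBX pair changed little with time. Cbx7 stood at 6.4 log2 CPM in Day0, at 6.94, 7.17, 7.11 and 6.94 in Nons on days 4 to 7, at 6.93, 7.23, 7.24 and 7.44 in Smarcc1.6, and at 6.80, 7.20, 7.38 and 7.42 in Smarcc1.7. Nons ended where it began, and both hairpin groups ended higher. Cbx7 rose by 0.12 ± 0.042 (SE) per day over the 3 groups (limma, adjusted p = 0.0328), a call that was lost without day 4 (0.03 per day, adjusted p = 0.652), without day 6 (0.11, adjusted p = 0.0643) or without the day 4 or day 7 library of either hairpin (adjusted p 0.0791 to 0.135). Cbx2 stood at 5.22 in Day0, at 5.38, 5.62, 5.38 and 4.87 in Nons, at 4.75, 5.21, 5.45 and 4.96 in Smarcc1.6, and at 4.82, 5.44, 5.29 and 4.84 in Smarcc1.7. In each group it was higher on day 5 than on day 4 and lower on day 7 than on day 6, and its change per day was -0.03 ± 0.077 (adjusted p = 0.730). Without day 4 it was -0.27 per day (adjusted p = 0.0203). Per kb of exon, the log2 ratio of Cbx7 to Cbx2 was 0.57 in Day0, 0.96 to 1.58 on day 4 and 1.46 to 1.97 on day 7, so Cbx7 mRNA exceeded Cbx2 mRNA on these days in every group. The Cbx7 gene overlaps Apobec3 on the opposite strand by 100 bases, and the strand setting of the counting was not given in the sources used here.

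Rybp fell with time, but its values moved with the set of libraries that stood apart. It stood at 5.41 log2 CPM in Day0, at 6.93, 6.36, 5.33 and 6.09 in Nons on days 4 to 7, at 7.16, 6.88, 5.53 and 6.19 in Smarcc1.6, and at 7.25, 6.76, 5.43 and 6.16 in Smarcc1.7. Day0 and day 6 gave the 4 lowest values, and day 6 lay below the mean of days 5 and 7 by 0.89, 1.00 and 1.03. Of all tested genes, 4.17% moved on day 6 by at least 1 log2 unit in all 3 groups, and no member did. A processed pseudogene of Rybp, Rybp-ps (chr13:66007737-66008417, 99.3% identical over 681 bases), lies under the table row Gm6910. Gm6910 stood at 4.85 in Day0 and at 4.40, 4.75 and 4.75 on day 6, against 1.52 to 3.13 in the other 9 libraries. Of the reads on both rows together, Gm6910 held 34.4 to 40.5% in Day0 and on day 6, and 4.0 to 5.8% elsewhere. With the 2 rows summed, the Nons values were 7.01, 6.44, 5.94 and 6.15, and the day 6 dip became smaller in each group. Rybp alone changed by -0.41 ± 0.12 (SE) per day (limma, adjusted p = 0.0121), and the sum by -0.36 ± 0.058 (adjusted p = 0.000324). Without day 4 Rybp alone no longer passed (-0.26 per day, adjusted p = 0.346), nor without day 5 (-0.40, adjusted p = 0.051). Its paralogue Yaf2 rose by 0.51 ± 0.088 per day (adjusted p = 0.000529). The log2 ratio of Rybp to Yaf2, per kb, was -0.35 in Day0 and averaged 2.33 on day 4. It was -1.09 to -0.72 on day 6 and averaged 0.04 on day 7, so the pair ended at nearly equal levels. With Gm6910 left out, Yaf2 was thus the higher in Day0 and on day 6, where Gm6910 held more of the reads. Adding its reads took Rybp from 5.41 to 6.16 in Day0, a larger step than the gap to Yaf2. The order in Day0 therefore depends on whether Gm6910 is counted. On day 6 the sums were 5.94 (Nons), 6.19 (Smarcc1.6) and 6.13 (Smarcc1.7), and these steps were smaller than the gaps.

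**Figure D3:**
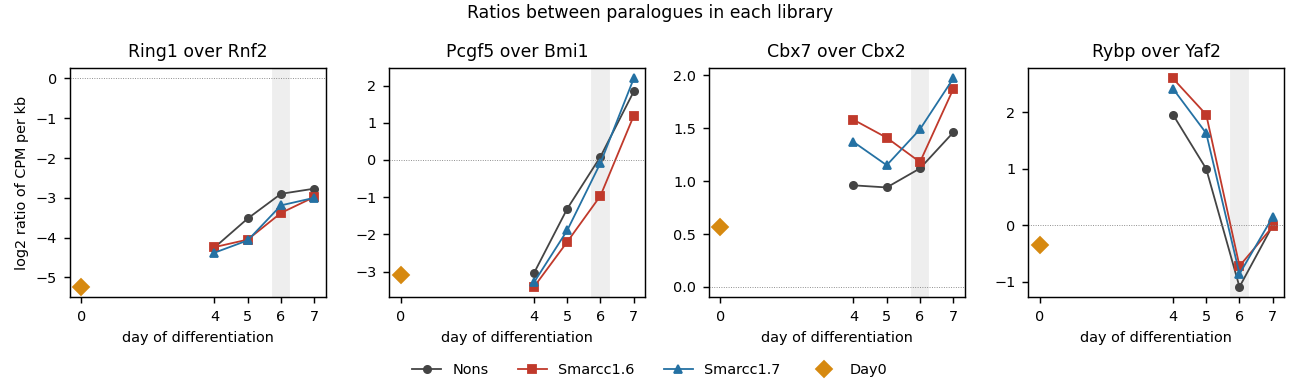
Log2 ratio of CPM per kb between paralogues (vertical axes, each with its own range) against day, 1 point per library, for Ring1 over Rnf2, Pcgf5 over Bmi1, Cbx7 over Cbx2 and Rybp over Yaf2; dotted lines mark equal levels and the grey band day 6. The mean ratio of Pcgf5 to Bmi1 crosses from -3.25 on day 4 to 1.74 on day 7, and Ring1 stays below Rnf2 in all 13 libraries.

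The ratio of Pcgf5 to Bmi1 changed most among the 7 ratios computed. It was -3.09 on the log2 scale in Day0, -3.41 to -3.04 on day 4 and 1.19 to 2.19 on day 7. In linear terms Bmi1 exceeded Pcgf5 by 8.2- to 10.6-fold on day 4, and Pcgf5 exceeded Bmi1 by 2.27- to 4.55-fold on day 7. With exons counted only inside the table's rows, the log2 ratio was -2.29 to -1.92 on day 4 and 2.31 to 3.31 on day 7. Over the 12 libraries Bmi1 and Pcgf6 had a Pearson correlation of 0.96, Bmi1 and Pcgf5 of -0.94 and Pcgf5 and Pcgf6 of -0.95. These describe genes that share libraries, days and normalisation, and no test was made of them.

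Genes that work with these subunits were taken from a list of other PRC1 genes, of which 26 are reported, and all 26 passed the filter. Of these, 3 rose with time, 15 fell and 8 did not pass, beside 34.9% of all genes rising and 25.6% falling, and the median change was -0.15 per day against 0.04 for all tested genes. After Yaf2, Phc2, which polymerises canonical PRC1, rose by 0.28 ± 0.063 (SE) and Fbrsl1 by 0.20 ± 0.055 per day. Both calls were lost without day 4, where the changes were 0.09 (adjusted p = 0.296) and 0.11 (adjusted p = 0.307). L3mbtl2, a subunit of the PCGF6 complex, fell by 0.78 ± 0.045 per day. Scmh1, a canonical PRC1 component, fell by 0.61 ± 0.081, and Kdm2b, which brings PCGF1 complexes to CpG islands, by 0.45 ± 0.071 (limma, adjusted p for these 5 genes from 8.69e-07 to 0.00989). Of the other PCGF6 partners, Mga and Max fell by 0.31 and 0.35 per day, whereas E2f6 had a change of 0.14 ± 0.058 that did not pass (adjusted p = 0.0585). Bcor of the PCGF1 complex fell by 0.35 while Pcgf1 itself rose. Of 4 genes for removing ubiquitin from H2A, Bap1 rose by 0.17 ± 0.050 per day (adjusted p = 0.0146), and Asxl1, Asxl2 and Usp16 fell. The Asxl2 call (-0.26 per day) was lost without day 7 (-0.06, adjusted p = 0.551), and the Bap1 and Usp16 calls without day 4 (0.03, adjusted p = 0.725, and -0.05, adjusted p = 0.541). The Usp16 call was also lost without day 7 (adjusted p = 0.0888). The Bap1 call was lost as well without the day 4 library of any 1 group (adjusted p 0.0527 to 0.0562), and that of Usp16 (-0.12 per day) without Smarcc1.6 day 4, Smarcc1.7 day 4 or Smarcc1.7 day 7 (adjusted p 0.104 to 0.123). Xist, to which PCGF3 and PCGF5 complexes are recruited, rose by 1.26 ± 0.158 per day (adjusted p = 6.48e-05), and the fitted change of Hnrnpk was -0.17 ± 0.117 per day (adjusted p = 0.238). Hnrnpk stood at 8.92 to 8.99 log2 CPM on day 6 and 9.04 in Day0, against 9.80 to 10.09 in the other 9 libraries. It passed without day 6 (-0.07, adjusted p = 0.0498) and without day 7 (-0.54, adjusted p = 0.00744).

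**Figure D4:**
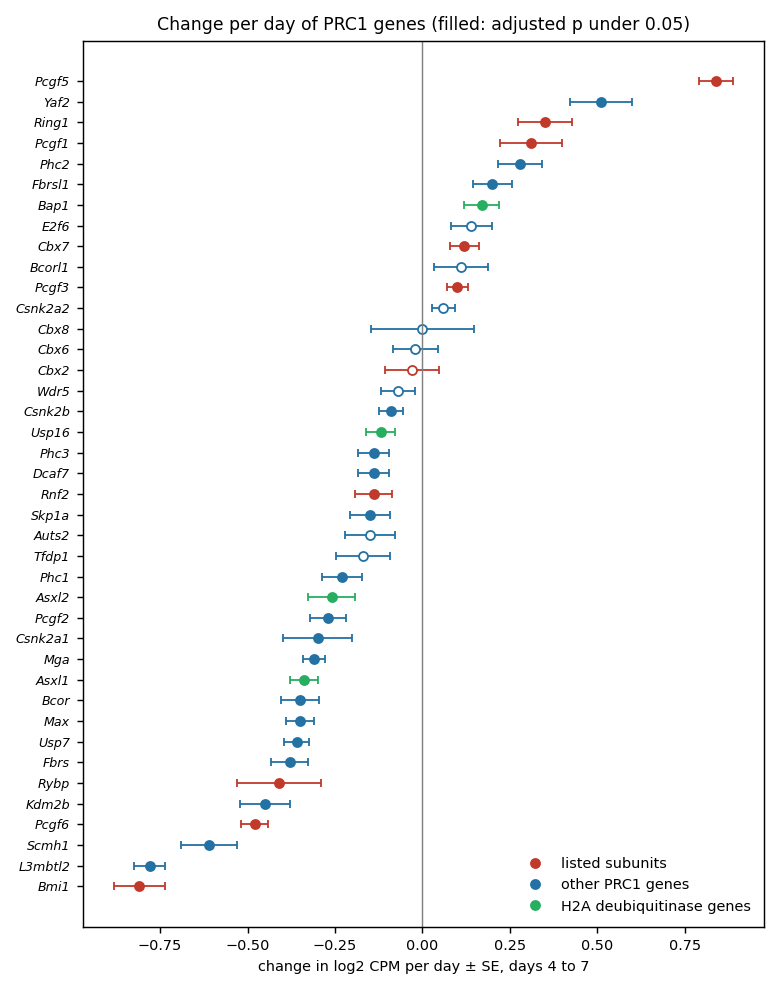
Change in log2 CPM per day over days 4 to 7 (horizontal axis, point and SE from limma with group as a covariate, 12 libraries) for the 10 members, 26 other PRC1 genes and 4 H2A deubiquitinase genes, in order of size. Filled points have an adjusted p under 0.05; Pcgf5 is at the top with 0.84 and Bmi1 at the bottom with -0.81.

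Smarcc1 knockdown was compared with Nons within each day, over both hairpins. Of the 10 members 1, Rybp, passed, where 11.6% of all tested genes did (6.88% higher and 4.77% lower), so the share of members was near the background. Rybp was higher than Nons by 0.23, 0.52, 0.20 and 0.10 on the log2 scale with Smarcc1.6 on days 4, 5, 6 and 7, and by 0.32, 0.40, 0.10 and 0.07 with Smarcc1.7. All 8 differences lay above 0, as they did for 7.89% of tested genes. The fitted difference was 0.24 ± 0.065 (SE), a fold of 1.18 (limma, adjusted p = 0.0344). With the reads of Gm6910 added it was 0.26 ± 0.061 (adjusted p = 0.0198). The call was lost without day 4, 5 or 6 (adjusted p = 0.103, 0.200 and 0.0952), and without any 1 of 8 libraries, Nons or Smarcc1.6 of day 4, 5 or 6 and Smarcc1.7 of day 4 or 5 (adjusted p 0.0538 to 0.166).

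For the other 9 members the same-day differences did not pass. Bmi1 was higher in 7 of 8 libraries, by 0.31 ± 0.12 (SE) overall (limma, adjusted p = 0.114). Cbx2 was lower in 6 of 8, by 0.22 ± 0.098 (adjusted p = 0.164). The gap in Cbx2 was widest on day 4, at -0.63 and -0.56, and was 0.09 and -0.04 on day 7. Ring1 was above Nons on day 4, by 0.38 and 0.20, and below it in all 6 later libraries, by 0.36 to 0.55. Its overall difference was -0.27 (adjusted p = 0.223). Without the Nons day 4 library it was -0.46 (adjusted p = 0.0252), and without all of day 4 it was also -0.46 (adjusted p = 0.0413). Cbx7 was higher by 0.50 and 0.48 on day 7 and within 0.14 of Nons on day 4, with an overall difference of 0.16 (adjusted p = 0.196). The remaining members had overall differences of 0.18 (Pcgf1), -0.14 (Pcgf5), 0.06 (Pcgf6), 0.03 (Rnf2) and -0.01 (Pcgf3). As a ratio on the log2 scale, Cbx7 over Cbx2 was above the Nons value of its day in 8 of 8 hairpin libraries, by 0.38 on average. Rybp over Yaf2 was above it in 7 of 8, Pcgf5 over Pcgf6 in 4 of 8 and Pcgf5 over Pcgf3 in 2 of 8. Ring1 over Rnf2, Pcgf5 over Bmi1 and Pcgf2 over Bmi1 were above it in 1 of 8. These counts are descriptions, and both hairpins share the same Nons libraries.

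**Figure D5:**
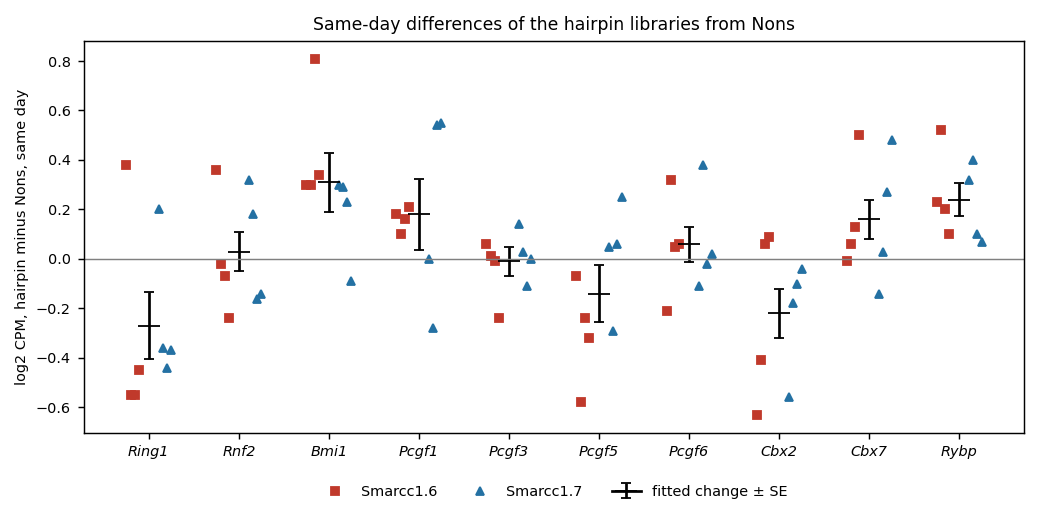
Difference in log2 CPM between each hairpin library and the Nons library of its day (vertical axis) for the 10 members; squares are Smarcc1.6 and triangles Smarcc1.7, 4 days each in order from left to right, and bars are the difference fitted over both hairpins with its SE. Only for Rybp do all 8 points lie above 0, and the fitted difference there is 0.24.

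Each hairpin was also set against Nons on its own, in comparisons that use the same 4 Nons libraries. With Smarcc1.6, 1 member passed, against 9.3% of genes. This was Bmi1, higher than Nons by 0.30, 0.30, 0.81 and 0.34 on days 4, 5, 6 and 7, with a fitted difference of 0.44 ± 0.12 (SE, limma, adjusted p = 0.0488). The largest gap was on day 6. The call was lost without any 1 day (adjusted p 0.0551 to 0.251), when libraries were centred on the autosomal median (adjusted p = 0.0515), and without any 1 library other than Nons day 7 and Smarcc1.7 day 7 (adjusted p 0.0594 to 0.169). Pcgf5 was lower in 4 of 4 Smarcc1.6 libraries, by 0.30 ± 0.10 (adjusted p = 0.0980), and Rybp was higher in 4 of 4, by 0.26 ± 0.077 (adjusted p = 0.0603). Rybp passed without Nons day 7 (0.31, adjusted p = 0.0341) or all of day 7 (0.32, adjusted p = 0.0461), and Ring1 without Nons day 4 (-0.48, adjusted p = 0.0452). With Smarcc1.7, 0 members passed by limma, where 2.45% of genes did. Without adjustment 1 member, Rybp, was under 0.05, at 0.22 ± 0.077 (adjusted p = 0.140), as were 2838 of the 13406 genes. For Bmi1 the Smarcc1.7 difference was 0.18 ± 0.12 (adjusted p = 0.423), and for Pcgf5 it was 0.02 ± 0.10 (adjusted p = 0.938).

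Set against each other, the hairpins differed for 0 members and for 0.0% of genes by limma. Without adjustment, 1 member, Pcgf5, was under 0.05, lower with Smarcc1.6 by 0.32 ± 0.10 (SE, adjusted p = 0.989), as were 530 genes. By voom on the recovered reads, the counts of members were the same, 0 and 1, beside 0 and 584 genes. The knockdown difference was next allowed to change with day. For this interaction 0 members passed, against 4.54% of genes, and 3 were under 0.05 without adjustment, as were 2574 of the 13406 genes. The difference from Nons changed per day by 0.18 ± 0.047 (SE) for Cbx7 (limma, adjusted p = 0.0514), by 0.21 ± 0.065 for Cbx2 (adjusted p = 0.0956) and by -0.18 ± 0.050 for Rnf2 (adjusted p = 0.0739). Cbx7 passed when libraries were centred on the autosomal median (0.20, adjusted p = 0.0361) and without Smarcc1.6 day 6 (0.20, adjusted p = 0.0415). By voom the interaction gave 0 members passing and 3 unadjusted, beside 711 and 2739 of the 13406 genes.

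In the same comparison of knockdown with Nons, 3 of the 26 other PRC1 genes were higher and 1 was lower, beside 6.88% and 4.77% of all genes, with a median difference of -0.005 against -0.013 for all genes. Scmh1 was higher by 0.55 ± 0.149 (SE), L3mbtl2 by 0.42 ± 0.089 and Skp1a, an adaptor of the PCGF1 complex, by 0.26 ± 0.054, and Tfdp1 was lower by 0.26 ± 0.074 (limma, adjusted p from 0.0136 to 0.0430). L3mbtl2 and Skp1a were higher in 8 of 8 hairpin libraries and Scmh1 in 6 of 8. Wdr5, which did not pass (limma, adjusted p = 0.102), was also higher in 8 of 8. All 8 differences lay above 0 for 7.89% of tested genes, and both hairpins share the same Nons libraries. Of the 4 H2A deubiquitinase genes 1, Usp16, passed, beside 11.6% of all genes. Usp16 was lower in 8 of 8 by 0.33 ± 0.080 (adjusted p = 0.0243), where 7.1% of tested genes had all 8 differences below 0. All 5 calls were lost without day 5 or without day 6 (adjusted p 0.0511 to 0.194), those of Scmh1 and Usp16 also without day 7 (both 0.0514), and that of Tfdp1 without day 4 (0.127). Each was also lost when certain single libraries were left out. These were Nons day 5 for L3mbtl2 (adjusted p = 0.0532), Nons day 5 or 6 for Skp1a (0.0533 and 0.0721), Nons day 5, 6 or 7 or Smarcc1.6 day 6 for Usp16 (0.0529 to 0.109), and any library of day 5 or 6 for Scmh1 (0.0545 to 0.158). For Tfdp1 they were all but Nons day 7 and Smarcc1.6 day 7 (0.05003 to 0.135). With Smarcc1.6 alone, 2 of the 26 passed, L3mbtl2 and Skp1a, beside 9.3% of all genes. Both calls were lost without day 5 or 6, and that of Skp1a without day 4 (adjusted p 0.0588 to 0.201). With Smarcc1.7 alone 0 passed by limma, beside 2.45% of all genes. Without adjustment 5 of the 26 were under 0.05, beside 2838 of the 13406 genes. Markers of mESCs moved with knockdown as well, as 5 of 7 were higher than in Nons, with summed log2 CPM of 10.11 to 10.77 in Nons, 10.42 to 11.39 in Smarcc1.6 and 10.11 to 11.11 in Smarcc1.7. By day, these sums in Nons, Smarcc1.6 and Smarcc1.7 were 10.60, 11.39 and 11.11 on day 4, and 10.53, 10.94 and 10.70 on day 5. They were 10.77, 10.76 and 10.86 on day 6, and 10.11, 10.42 and 10.11 on day 7. Beside these markers, Rybp, L3mbtl2, Scmh1 and Skp1a were higher in knockdown, whereas Tfdp1 and Usp16 were lower. The part of the mESC markers in those differences was not tested. Markers of other cell types moved too, with 2 of 3 fibroblast markers higher in knockdown and 1 mesoderm, 1 endoderm and 1 trophoblast marker lower. The summed log2 CPM of the mesoderm markers was 7.86 in Nons on day 7, against 5.59 in Smarcc1.6 and 4.95 in Smarcc1.7. That of the fibroblast markers was 6.41 on that day, against 7.51 and 7.53. The mesoderm gap was not the same on every day. Nons had the lowest day 4 sum (4.02), below Smarcc1.7 (4.7) and Smarcc1.6 (5.29). The day 5 sums lay close together, at 4.2 (Nons), 4.16 (Smarcc1.6) and 3.87 (Smarcc1.7). By day 6 Nons was the highest (5.62), above Smarcc1.6 (4.03) and Smarcc1.7 (3.55). Of the primed and neuroectoderm markers 1 each was higher. The part of these markers in the differences was not tested. Xist was lower by 0.75 in the knockdown (adjusted p = 0.0372), by 1.06 with Smarcc1.6 (adjusted p = 0.00516) and by 0.45 with Smarcc1.7, which did not pass (adjusted p = 0.160). The gap narrowed with time, from -1.52 and -1.17 on day 4 to -0.52 and 0.21 on day 7, and its change per day of 0.38 ± 0.056 passed (adjusted p = 0.00518). That interaction call was lost with day as a number in place of a factor, where 0 of 13406 genes passed. The call over both hairpins was lost without day 4, 5 or 6 (adjusted p 0.112 to 0.136), and without the single libraries Nons day 4, 5 or 6, any 1 Smarcc1.6 library or Smarcc1.7 day 4 (adjusted p 0.0583 to 0.129). Hnrnpk differed by -0.00 (adjusted p = 0.971).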

How the data were processed

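RNA was sequenced from 13 libraries, whose titles gave group and day. The authors made TruSeq libraries, sequenced them as paired-end reads, trimmed them with trim_galore, aligned them with tophat or hisat2 to mm10 with parental SNPs masked, and quantified genes in Seqmonk. The submitters' notes name TopHat2 2.0.12 and bcl2fastq. The annotation release and strand setting were not given in the sources used here. The authors deposited log2 CPM, in which 0 reads are written as 0.9 reads. All 13 columns were used. In each library, 100% of values of up to 50 reads were whole multiples of 1 read within 0.02, which gave the depths.

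Genes averaging 0 or more (log2 CPM) over the 12 differentiating libraries were fitted with limma 3.58.1 in R 4.3.3 (lmFit, eBayes with a trend), with Benjamini-Hochberg adjustment over all 13406 genes and a threshold of 0.05. Knockdown, each hairpin and the interaction with day had day as a factor, and the change per day had group as a covariate. Day0 entered no test. The models were tested on simulated data, which for the change per day held no shifts shared by the libraries of a day. Levels per kb used exon unions from GENCODE M21, and shares and ratios were not tested. Copies were searched with blastn 2.17.0 (90% identity over 200 bases). The values given for 3 reads are the log2 CPM of that count at the lowest and highest depth, and are not an estimate of error. The SE comes from the limma fit and, like the SD, measures spread between libraries.

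The members and gene lists were chosen with earlier results of these data known. The members, Smarcc1, Xist and Hnrnpk are named, and of the other lists the genes past the threshold for knockdown or a hairpin and the 3 largest rises and falls per day. Others (Mga, Max, E2f6, Bcor, Wdr5, Gm6910 and Pcgf2) were named after their values were seen. One further gene of the list of other PRC1 genes is not reported here and is in none of the counts over the other 26. Alternatives changed the filter, centring, pseudocount, trend and block, used voom on recovered reads, and left out days, libraries or a hairpin. Python 3.11.15, numpy 2.4.6, pandas 2.3.3 and matplotlib 3.10.9 were used.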

Additional observations from a re-analysis of the deposited data

Results flagged for a closer look

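For each member in each of Nons, Smarcc1.6 and Smarcc1.7, the 4 libraries were examined for 1 lying far from the other 3 by Dixon's test. This was met in 0 of the 30 groups. The 4 libraries are successive days and not replicates, so the chance rate of the test does not apply to them. A count of 0 thus does not show that no library was aberrant. No member had all its Smarcc1.6 differences from Nons on one side of 0 and all its Smarcc1.7 differences on the other.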

How the results depend on the processing

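The number of members passing for knockdown was 1, and it was 0 when eBayes had no trend, with no replicate block (day left out of the model), and with either hairpin alone against Nons. Leaving out days or libraries gave 0 to 1. For Smarcc1.6 the count of 1 became 0 with a filter at a mean log2 CPM of 2, with centring on the autosomal median, without a trend, with no replicate block and with Smarcc1.6 and Nons only. It became 2 with the reads of Gm6910 added to Rybp, an alternative chosen after seeing the data, and leaving out days or libraries gave 0 to 2. With no replicate block the adjusted p of Rybp for knockdown and of Bmi1 for Smarcc1.6 was 1. Day pairs the libraries by their labels, and the block changed no other call of a member. The count of 9 for the change per day became 5 with Smarcc1.6 and Nons only and 5 to 9 when days or libraries were left out, 5 of them without day 4 or without day 7. The one change of sign of a called value was Rnf2 per day, which ranged from -0.207 to 0.008 as days were left out. For the interaction the count of 0 became 1 with centring, and 0 to 1 with days or libraries left out. With day as a number in place of a factor, chosen after seeing the data, the interaction passed for 0 genes and not 608, and for 0 members. The day 7 share of Pcgf5 was 16.39% with the longest transcript as its length and 24.64% with exons inside the table's row, that of Pcgf6 30.1% and 23.28%, that of Bmi1 2.79% with the longest transcript, and the log2 ratio of Ring1 to Rnf2 -3.1 with exons inside the row. Of 1464 recomputed member values, 1385 kept their side of the threshold, 69 fell short of it, 9 passed it and 1 called value changed sign. The 1385 include 85 uncalled values that changed sign. The cause of these shifts was not tested. The lowest count of a member in any library was 61 reads, and the part of depth in the results was not tested.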

Other observations

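For each member, the gene whose log2 CPM followed it most closely over the 12 differentiating libraries was found among all tested genes. Bmi1 was followed by Gm17067 (Pearson's r = 0.995), Pcgf5 by Gramd1a (0.993), Rybp by Dnajb6 (0.992), Pcgf6 by Afg3l2 (0.99) and Ring1 by Zadh2 (0.981). Cbx7 was followed by 1810037I17Rik (0.968), Cbx2 by Lin28a (0.966), Pcgf1 by Rpl22 (0.958), Rnf2 by Rad21 (0.948) and Pcgf3 by Hsd17b4 (0.939). Each is the highest of many coefficients, over libraries that share days and groups, so the values are descriptions.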
